A study of Homo sapiens with 2 samples.

Results

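Accessible chromatin on human chromosomes 13 and 18 was compared between 2 ATAC-seq libraries of G401 cells. G401 is an established line from a malignant rhabdoid tumour of the kidney and lacks SMARCB1, a subunit of the SWI/SNF chromatin remodelling complex, so both groups share this defect. Cells were kept for 3 days in the same medium with either DMSO, which is the solvent, or MAK683. MAK683 is a small molecule that binds EED, a core subunit of Polycomb repressive complex 2 (PRC2). The dose used for these libraries was not given in the sources used here, and both libraries stand for a single cell line. Each group is 1 library, so differences could not be set against a spread between replicates and are given without p-values.

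The members are all peaks that lie on chromosome 13 or chromosome 18 in either peak list. They numbered 11025 of 276190 peaks in both lists, with 3584 of 114506 in the DMSO library and 7441 of 161684 in the MAK683 library. Both chromosomes were chosen by their ratios of MAK683 to DMSO peak numbers, which were the highest. Peak numbers, and every other measure of the same contrast, are therefore given as a description. The ratio was 2.12 on chromosome 18 and 2.04 on chromosome 13, the members just inside the choice. Chromosomes 4 and 8, just outside it, had 1.83 and 1.82. The MAK683 library was deeper, with 18265284 tags after the removal of duplicates against 16598348, a ratio of 1.10. As a check of the cell line, 0 peaks lay over SMARCB1 on chromosome 22 in either library, within a stretch without peaks of 669 kb in DMSO and 699 kb in MAK683 that holds the starts of 19 protein-coding genes.

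ATAC-seq reads out where the Tn5 transposase can reach DNA. The enzyme leaves adapters where it cuts, and these cuts pile up at active promoters, enhancers and sites bound by the insulator protein CTCF. PRC2 places methyl groups on lysine 27 of histone H3, and its trimethylated form, H3K27me3, marks silent genes, many of which encode developmental transcription factors and signalling proteins. Chromosomes 13 and 18 are known as gene-poor chromosomes with long gene deserts and, in many cell types, a position near the nuclear edge. They carry developmental regulators such as SOX1, ZIC2, GATA6 and SALL3, the desmosomal cadherins and the type IV collagen pair COL4A1 and COL4A2.

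The sequences under the tallest peaks that were called in a single library, and under the tallest regions called in both, are shown first, because they hold the largest heights of each kind on these chromosomes. The DSG2 and SALL3 promoters, read as 3 kb on either side of the TSS, are added as examples of genes with a MAK683 peak only. Each is the plus strand of GRCh37, 5′ to 3′, 200 bases around the summit, or 150 bases for the last pair. Capitals mark matches to 3 motifs searched on both strands. For AP-1 this was TGANTCA. For GATA factors it was AGATAA or AGATAG, and also TGATAA or TGATAG. The CTCF core was searched by its known consensus. Of 17025 windows of 200 bases spaced every 10 kb along chromosomes 13 and 18, 6.57% held the first, 39.6% the second and 0.0470% the third. A match is a description of the letters and does not show that a factor was bound.
DMSO only, GGACT intron, chr13:101225348-101225547: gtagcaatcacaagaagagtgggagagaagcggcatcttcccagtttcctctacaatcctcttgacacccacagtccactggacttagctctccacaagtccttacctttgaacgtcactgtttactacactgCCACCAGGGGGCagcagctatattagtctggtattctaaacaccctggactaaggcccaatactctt
DMSO only, intron of lncRNA ENSG00000266573, chr18:22449944-22450143: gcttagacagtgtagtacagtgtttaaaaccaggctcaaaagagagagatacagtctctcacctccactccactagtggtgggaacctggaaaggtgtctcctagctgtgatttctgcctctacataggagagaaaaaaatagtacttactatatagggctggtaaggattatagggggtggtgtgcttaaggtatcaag
MAK683 only, lncRNA exon near POU4F1, chr13:79170306-79170505: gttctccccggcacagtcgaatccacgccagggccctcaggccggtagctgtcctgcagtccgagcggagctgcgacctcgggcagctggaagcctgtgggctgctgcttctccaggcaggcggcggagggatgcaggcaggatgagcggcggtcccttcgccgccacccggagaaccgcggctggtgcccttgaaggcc
MAK683 only, between genes near PIK3C3, chr18:39520549-39520748: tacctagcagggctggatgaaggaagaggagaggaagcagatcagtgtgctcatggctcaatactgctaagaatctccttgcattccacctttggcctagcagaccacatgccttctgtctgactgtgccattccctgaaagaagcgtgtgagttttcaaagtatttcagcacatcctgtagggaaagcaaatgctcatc
MAK683 only, KLHL14 intron, chr18:30348670-30348869: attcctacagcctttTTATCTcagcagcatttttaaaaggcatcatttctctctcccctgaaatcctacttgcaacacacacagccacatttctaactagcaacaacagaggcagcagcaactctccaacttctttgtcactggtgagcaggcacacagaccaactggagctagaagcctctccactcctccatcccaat
Both libraries, tallest on chromosome 13, chr13:110076483-110076682: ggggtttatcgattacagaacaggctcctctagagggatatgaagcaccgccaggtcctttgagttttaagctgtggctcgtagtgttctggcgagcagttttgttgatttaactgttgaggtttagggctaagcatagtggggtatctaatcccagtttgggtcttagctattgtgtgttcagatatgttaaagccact
Both libraries, tallest on chromosome 18, chr18:18518803-18519002: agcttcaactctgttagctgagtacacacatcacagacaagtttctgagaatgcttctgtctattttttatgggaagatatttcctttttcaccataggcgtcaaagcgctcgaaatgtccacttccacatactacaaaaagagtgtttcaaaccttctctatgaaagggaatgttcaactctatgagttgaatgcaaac
MAK683 only, DSG2 promoter, chr18:29078304-29078453: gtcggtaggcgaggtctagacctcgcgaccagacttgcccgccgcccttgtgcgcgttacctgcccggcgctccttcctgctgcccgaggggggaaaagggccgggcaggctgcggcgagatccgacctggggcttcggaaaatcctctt
MAK683 only, SALL3 promoter, chr18:76737401-76737550: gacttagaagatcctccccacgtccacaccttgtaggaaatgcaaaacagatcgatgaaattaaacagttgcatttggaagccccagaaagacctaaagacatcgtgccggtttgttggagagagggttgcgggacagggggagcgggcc

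The DMSO-only peak in the GGACT intron (chr13:101225333-101225634) held 23 tags over its summit, or 1.39 tags per 1000000 filtered tags (RPM below; 95% Clopper-Pearson interval 0.878 to 2.08). Its sequence holds a match to the CTCF core. The DMSO-only peak on chromosome 18 (chr18:22449857-22450235) held 20 tags, 1.20 RPM (0.736 to 1.86), 409443 bp from the start of HRH4, a histamine receptor gene. The sequence near POU4F1, a homeobox regulator of sensory neurons, had 70.5% GC and 17 CpG dinucleotides. That MAK683-only peak (chr13:79169422-79170846) held 26 tags, 1.42 RPM (0.930 to 2.09), over the exon of a lncRNA 7281 bp from the POU4F1 start. The tallest MAK683-only peak of both chromosomes (chr18:39520133-39521286) held 28 tags, 1.53 RPM (1.02 to 2.22). It lay between genes, 14550 bp from PIK3C3, which encodes the class III phosphoinositide 3-kinase. The KLHL14 intron peak held 26 tags and carries a GATA match. The remaining tallest single-library peaks are not shown as sequence. They lay at the TNFRSF19 start (26 tags, MAK683), in a TSC22D1 intron (20 tags, DMSO) and in the first part of GALNT1 (18 tags, DMSO), where both libraries also had other promoter peaks. None of these single-library peaks reached 2 RPM. The intervals given with heights, shares and ratios count tags or peaks as independent and hold no other error, although peaks side by side, and reads copied by PCR, are related.

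Chromosomes 13 and 18 had the lowest densities of protein-coding genes among chromosomes 1 to 22 and X, so that the name gene-poor fits the annotation. Chromosome 13 carried 322 such genes, 3.37 per assembled Mb, and chromosome 18 carried 266, 3.56 per Mb, against 7.28 per Mb on the other chromosomes together. DMSO peaks were sparse on both, at 21.4 and 20.6 per Mb against 41.1 per Mb elsewhere. In the MAK683 library the densities were 43.6 and 43.8 per Mb, against 57.2 per Mb elsewhere. The gap to the rest of the genome was thus narrower in the treated library. On chromosome 13 there were 2044 DMSO and 4172 MAK683 peaks, and on chromosome 18 there were 1540 and 3269. Over both, the ratio was 2.08 (95% interval 2.00 to 2.16), against 1.39 (1.38 to 1.40) on the other chromosomes.

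The bases under peaks differed less than the peak numbers. Peaks of chromosomes 13 and 18 covered 2543 kb in DMSO and 4116 kb in MAK683, a ratio of 1.62, against 1.12 elsewhere. The median peak length was 412 bp in DMSO and 374 bp in MAK683. Across the 23 chromosomes, the log2 ratio of peak numbers fell with protein-coding gene density (Pearson's r -0.75, Spearman's coefficient -0.82) and with GC content (Pearson's r -0.82, Spearman's coefficient -0.74). These points share the same pair of libraries, and gene density and GC content move together, so the values are a description. Chromosomes 17, 19 and 22, the most gene-dense, had ratios of 0.864, 0.848 and 0.832.

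**Figure D1:**
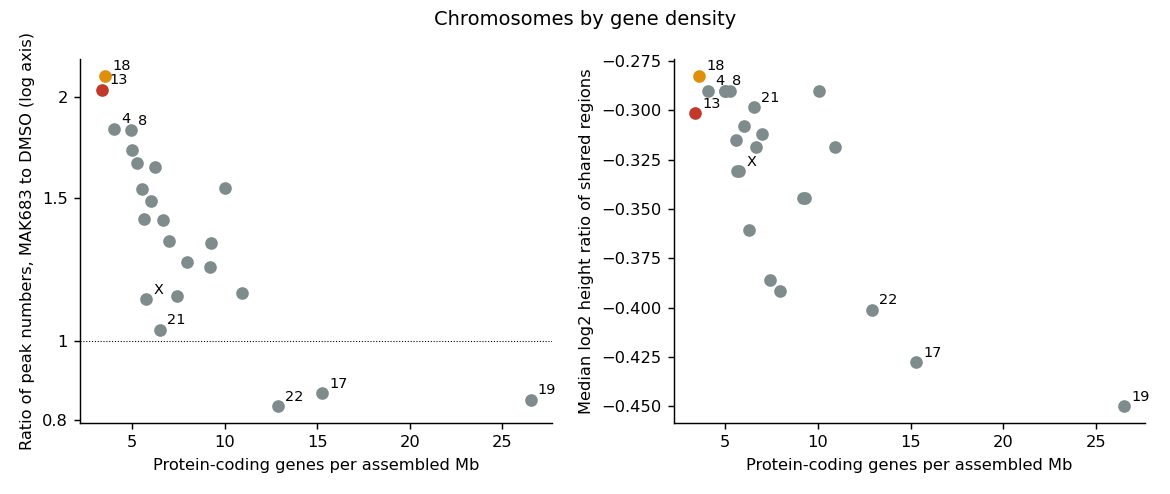
Each point is a chromosome, with protein-coding genes per assembled Mb on the x axis. The left panel plots the ratio of MAK683 to DMSO peak numbers on a log axis and the right panel the median log2 height ratio of regions called in both libraries. Chromosomes 13 and 18 sit at the left end with ratios of 2.04 and 2.12, while 17, 19 and 22 lie below 1.

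Split by height, the excess on chromosomes 13 and 18 sat in the lowest peaks, and the tallest peaks were fewer after MAK683. Under 0.5 RPM, the ratio of peak numbers was 4.11 on chromosome 13 (490 DMSO and 2012 MAK683 peaks) and 4.25 on chromosome 18 (349 and 1482), against 2.70 elsewhere. From 0.5 to 1 RPM it was 1.60 and 1.81, against 1.13. From 1 to 1.5 RPM and from 1.5 to 2 RPM the intervals of both chromosomes included equal numbers. At 2 RPM or more, chromosome 13 had 148 DMSO and 62 MAK683 peaks, a ratio of 0.419 (0.311 to 0.564). Chromosome 18 had 108 and 36, a ratio of 0.333 (0.229 to 0.486). The ratio thus crossed 1 within the height range on both chromosomes, and for all peaks of 1 RPM or more it was 0.831, against 0.712 elsewhere.

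Height in RPM divides by depth, and 1 tag is worth 0.0602 RPM in DMSO and 0.0547 RPM in MAK683. The class under 0.5 RPM therefore reached 8 tags in DMSO and 9 tags in MAK683, which adds peaks to the MAK683 side only. For this reason the classes were also cut in whole tags. Peaks of 6 to 8 tags, the lowest that were called, were 2.60 times as many in MAK683 (839 and 2184), and those of 9 to 12 tags 2.38 times. The ratio was 1.69 at 13 to 20 tags, 1.36 at 21 to 30 tags and 0.641 (0.536 to 0.768) at 31 tags or more. The order by height was therefore the same on the scale without depth correction, with a smaller ratio in the lowest class.

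Low peaks were also those that a single library called. Overlap with a DMSO peak was found for 28.7% (27.7 to 29.7%) of the MAK683 peaks here, against 43.9% elsewhere. In the other direction 57.4% (55.8 to 59.0%) of the DMSO peaks were overlapped, against 56.1% elsewhere. Under 0.5 RPM, 14.3% of MAK683 peaks were overlapped, against 25.4% elsewhere, and from 0.5 to 1 RPM 31.3% against 49.1%. At 1.5 to 2 RPM the MAK683 share was 99.4%, and at 2 RPM or more all 256 DMSO and all 98 MAK683 peaks were overlapped by a peak of the other library. There were 1526 peaks of DMSO alone and 5306 of MAK683 alone, and 9 tags was the median of each set. When 50% of each peak had to overlap, the shared shares were 16.1% for MAK683 and 33.3% for DMSO. Called in a single library, a peak of this height may lie just under the limit of 6 tags in the other, where no height was recorded.

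**Figure D2:**
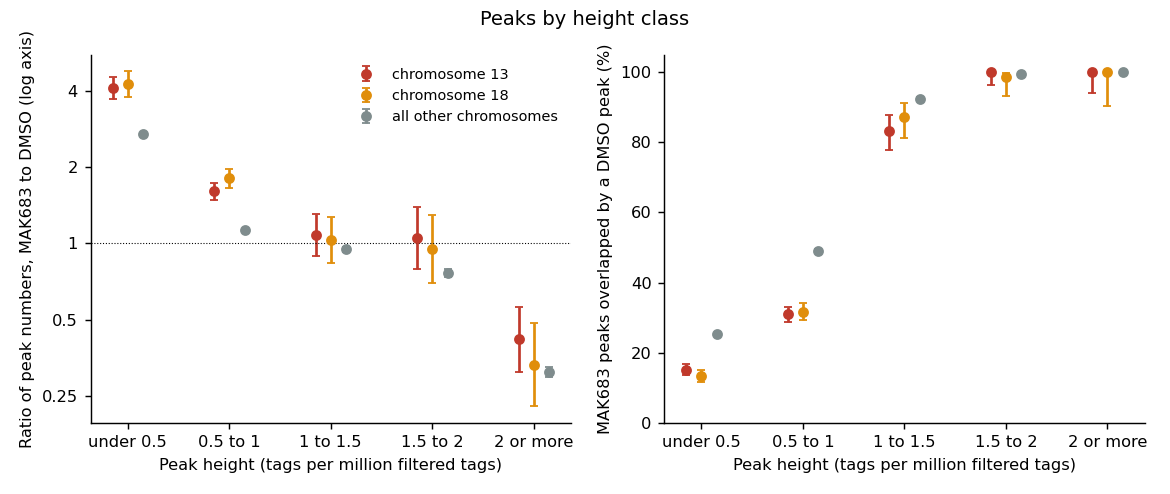
The x axis gives classes of peak height in tags per 1000000 filtered tags; points are values and bars 95% counting intervals for chromosome 13, chromosome 18 and all other chromosomes. The left panel plots the ratio of MAK683 to DMSO peak numbers on a log axis. On chromosomes 13 and 18 it falls from above 4 in the lowest class to below 0.5 in the tallest. Classes in RPM do not hold the same tag numbers in both libraries. The right panel plots the percent of MAK683 peaks that a DMSO peak overlaps, rising to 100%.

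Where both libraries called a peak, the MAK683 peak was usually the lower. Overlapping peaks merged into 1871 shared regions, and MAK683 was lower at 1324 of them, 70.8%, against a share of 76.2% over all shared regions of the genome. The median log2 height ratio was -0.29 (-0.31 to -0.28), against -0.33 on the other chromosomes. A 2-fold or larger difference was found higher in MAK683 at 23 regions (0.873% of regions genome-wide) and lower at 92 (5.54% genome-wide). The median was -0.33 at the 764 regions within 3 kb of a transcription start site (TSS) and -0.26 at the other 1107. It was -0.14 at the 821 regions under 0.75 RPM in mean height, -0.32 at the 707 regions up to 1.5 RPM and -0.45 at the 343 regions above it. Equal tag numbers in both libraries give -0.14 through the division by depth alone. Regions and promoters with equal tag numbers therefore count as lower in MAK683. Low regions could enter only when both libraries reached the calling limit, so the value at the tall regions is the least shaped by that limit.

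The tallest region of each chromosome lay far from any protein-coding TSS. On chromosome 13, chr13:110076376-110076785 held 130 tags in DMSO and 120 in MAK683, 7.83 and 6.57 RPM, a log2 ratio of -0.25. It overlaps an exon of a lncRNA, ENSG00000289901. All 200 bases printed for it occur in the mitochondrial sequence of the same assembly, and it lies 362347 bp from IRS2, which encodes an insulin receptor substrate. On chromosome 18, chr18:18514090-18520444 held 124 and 106 tags, 7.47 and 5.80 RPM, a log2 ratio of -0.36. It spans 6355 bp, and its summit lies 8005 bp from the gap that stands for the centromere in the assembly. Around the summit the sequence had 67.2% identity with itself after a shift of 171 bp, the best of the shifts from 100 to 200 bp and the known unit length of alpha satellite, against a median of 27.1% over 1701 background windows. Reads from other copies of such sequences can align there, so neither height can be assigned to these positions alone. By a mitochondrial match of 40 bases or an identity of 60%, 3 of 1871 shared regions were of such sequence, and without them the median was still -0.29 and the peak ratio 2.08.

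The next tallest region on chromosome 18, chr18:106523-112625, held 66 DMSO and 67 MAK683 tags, a log2 ratio of -0.12. It lay 885 bp from the TSS of the pseudogene ROCK1P1 and 50377 bp from the nearest protein-coding TSS, that of USP14, and reads may be split between a pseudogene and its parent gene. The regions that followed lay at promoters of protein-coding genes. On chromosome 13, the region at RAP2A, a Ras-related GTPase, held 65 DMSO and 56 MAK683 tags, and that at TDRD3, a Tudor domain protein, 73 and 46. On chromosome 18, the region at SEC11C, a signal peptidase subunit, held 68 and 48 tags, and that at CNDP2, a dipeptidase, 60 and 46. MAK683 was lower at each of these. The region at CTDP1, a phosphatase of the RNA polymerase II tail, held 52 and 60 tags, a log2 ratio of 0.07.

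Along the chromosomes, the MAK683 excess was widespread and uneven. Of 170 windows of 1 Mb that were at least 50% assembled, MAK683 had more peaks in 134, or 78.8%, against 67.1% of windows genome-wide. It had at least 2 times as many in 109, or 64.1%, against 45.1% genome-wide. DMSO had more in 20 windows. The median window held 9 DMSO peaks (0 to 183) and 37 MAK683 peaks (0 to 163). The longest unbroken run of windows with more MAK683 peaks covered 32 Mb of chromosome 13, from 58 to 90 Mb, a stretch known for its gene deserts. On chromosome 18 the longest run was 13 Mb, from 28 to 41 Mb. DMSO and MAK683 peak numbers per window were related over the 170 windows (Spearman's coefficient 0.79), a value that shares mappability and base composition between libraries.

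The windows with the largest MAK683 excess held 1 to 3 protein-coding TSSs each. On chromosome 13 the window of SOX1, a transcription factor of neural progenitors and its only protein-coding start, had 11 DMSO and 149 MAK683 peaks. The next, with IRS2, COL4A1 and COL4A2, had 10 and 125. On chromosome 18 the window of TPGS2 and KIAA1328 had 11 and 129, and its neighbour with CELF4, a neuronal RNA-binding protein, had 7 and 117. In these 4 windows nearly all DMSO peaks had a MAK683 counterpart, with 11 of 11, 10 of 10, 9 of 11 and 7 of 7 overlapped, and the median log2 height ratios of their shared regions were 0.28, 0.74, 0.39 and 0.53, above 0 unlike that of the chromosomes as a whole. Those ratios rest on only 9, 7, 9 and 6 shared regions. Peaks of these windows were low, with medians of 9 to 13 tags in both libraries.

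The windows with the largest DMSO excess had shared regions with medians below 0. The window of ZIC5 and ZIC2, zinc finger regulators of neural development, with CLYBL, TM9SF2 and PCCA, had 183 DMSO and 111 MAK683 peaks, and its shared regions had a median log2 height ratio of -0.64. A gene desert on chromosome 13, from 91 to 92 Mb and without a protein-coding TSS, had 126 and 84 peaks and a median of -0.55. On chromosome 18, the window of SMAD7, an inhibitor of TGF-beta signalling, had 114 and 89, and that of ZNF521, a zinc finger regulator of progenitor cells, had 122 and 98. Their medians were -0.32 and -0.37, near the -0.29 over all shared regions of chromosomes 13 and 18. These windows, chosen by their DMSO excess, were also rich in MAK683 peaks, and their shared regions were lower in MAK683.

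Windows of 40 or more MAK683 peaks and at least 5 times as many as DMSO, a limit set after the values were seen, numbered 23 of 170 on these chromosomes, or 13.5%, against 11.3% genome-wide. They held 205 DMSO and 1864 MAK683 peaks and 42.9% of the MAK683 excess. Without them the ratio of the other windows was 1.66. On the other chromosomes such windows held 50.5% of the excess, and the ratio without them was 1.20. Besides the windows above they included those of SALL3 with ATP9B (8 DMSO and 109 MAK683 peaks), LDLRAD4 with the melanocortin receptor genes MC5R and MC2R (14 and 113), SMAD2 with ZBTB7C (15 and 106), HTR2A, a serotonin receptor (10 and 80), EDNRB, an endothelin receptor (8 and 57), and NALCN with FGF14 (4 and 54). The share of such windows was near that of the other chromosomes, where they were 302 of 2699, or 11.2%.

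**Figure D3:**
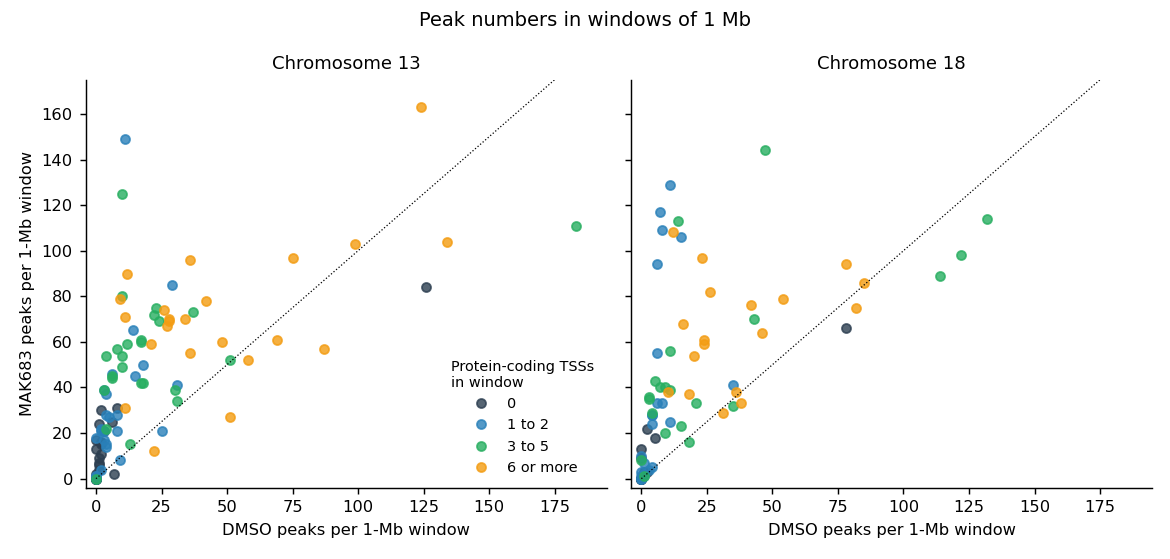
Each point is a 1-Mb window, with DMSO peaks on the x axis, MAK683 peaks on the y axis and colour for the number of protein-coding TSSs. Most points lie above the dotted line of equal numbers, and the points that reach 100 or more MAK683 peaks at fewer than 16 DMSO peaks include the windows of SOX1 (11 and 149), IRS2 (10 and 125), TPGS2 (11 and 129) and CELF4 (7 and 117).

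Gene density within the chromosomes was examined next. Windows with 6 or more protein-coding TSSs had a ratio of 1.61 (1.52 to 1.71), those with 3 to 5 had 2.06 (1.92 to 2.21) and those with 1 or 2 had 4.87 (4.33 to 5.46), against 1.14, 2.02 and 2.34 in the same classes elsewhere. In the class of 1 or 2 TSSs, DMSO had 345 peaks in 49 windows, 7.09 per Mb against 14.3 per Mb elsewhere, and MAK683 had 1679, 34.5 per Mb against 33.4. The high ratio there went with few DMSO peaks, while the MAK683 density was near that of other chromosomes. Chromosome 18 had 6.33 (5.28 to 7.59) and chromosome 13 had 3.92 (3.37 to 4.57) in this class. With 3 to 5 TSSs, chromosome 18 had 1.73 and chromosome 13 had 2.43, on either side of the other chromosomes.

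Over both chromosomes, windows without a protein-coding TSS broke the order of the other classes. Over all 34, the ratio was 1.80, with 251 DMSO and 451 MAK683 peaks, against 3.04 (2.85 to 3.24) elsewhere. The chromosome 13 desert from 91 to 92 Mb (126 and 84 peaks) and a chromosome 18 desert from 68 to 69 Mb (78 and 66) held 204 of the 251 DMSO peaks. Without both, a choice made after the values were seen, the other 32 windows had 47 and 301 peaks, a ratio of 6.40 (4.71 to 8.71). Without the first alone the ratio was 2.94. The same limit of fewer than 50 DMSO peaks gave 3.61 in 321 windows elsewhere. A limit on DMSO peaks acts on the denominator and so pushes the ratio up by construction. Why this class broke the order was not tested. In 10 of the 34 windows neither library had a peak. The ratio of windows without a TSS also depended on window size and on peak limits, at 2.83 with windows of 500 kb, 1.06 with windows of 2 Mb, and 0.994 and 0.676 when peaks needed a −log10 q of 5 and of 10. The values of the gene density classes therefore hold only for 1-Mb windows and all called peaks. There, the ratio was 1.61 at 6 or more TSSs, 2.06 at 3 to 5, 4.87 at 1 or 2 and 1.80 at 0. On chromosome 18 alone it was 1.77 at 6 or more and 1.73 at 3 to 5.

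The ratio was also set against the values that classes of windows had on the other chromosomes. When the ratio of each class of windows on the other chromosomes was applied to the DMSO peaks of chromosomes 13 and 18, classes of gene density gave 1.69, classes of GC content 1.60 and both together 1.72, against 2.09 as observed over the 3539 DMSO and 7405 MAK683 peaks in windows used. Within classes of GC content, chromosomes 13 and 18 had 3.06 under 37% GC and 1.62 at 44% or more, against 2.60 and 1.07 elsewhere. Whether composition has a part in the ratio was not tested.

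The ratio also differed with distance to genes. Within 1 kb of a protein-coding TSS there were 417 DMSO and 468 MAK683 peaks, a ratio of 1.12 (0.984 to 1.28), equal to the 1.12 elsewhere. From 1 to 3 kb the ratio was 1.30 (1.11 to 1.52), against 1.06 (1.04 to 1.09) elsewhere. From 3 to 10 kb the ratio was 1.51 (1.34 to 1.70), from 10 to 50 kb 1.82, from 50 to 200 kb 2.72 (2.53 to 2.93) and over 200 kb 3.25 (2.92 to 3.62). Elsewhere these last 4 classes had 1.03, 1.19, 2.01 and 2.93. Over 200 kb the interval elsewhere was 2.85 to 3.02. Both chromosomes were chosen by this ratio over all peaks, so the classes are a description and their intervals are not a test. Within 3 kb of the TSS of any annotated gene the ratio was 1.42, against 1.16 elsewhere. The median distance of a peak to a protein-coding TSS was 30075 bp in DMSO and 61566 bp in MAK683, against 15810 and 30317 bp elsewhere. Counting TSSs of all annotated genes, 32.6% (31.1 to 34.2%) of peaks in DMSO and 22.4% (21.4 to 23.3%) in MAK683 came within 3 kb, against 34.0% and 28.4% elsewhere. Among peaks of 1 RPM or more within 1 kb of a protein-coding TSS, the libraries had 307 and 314.

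**Figure D4:**
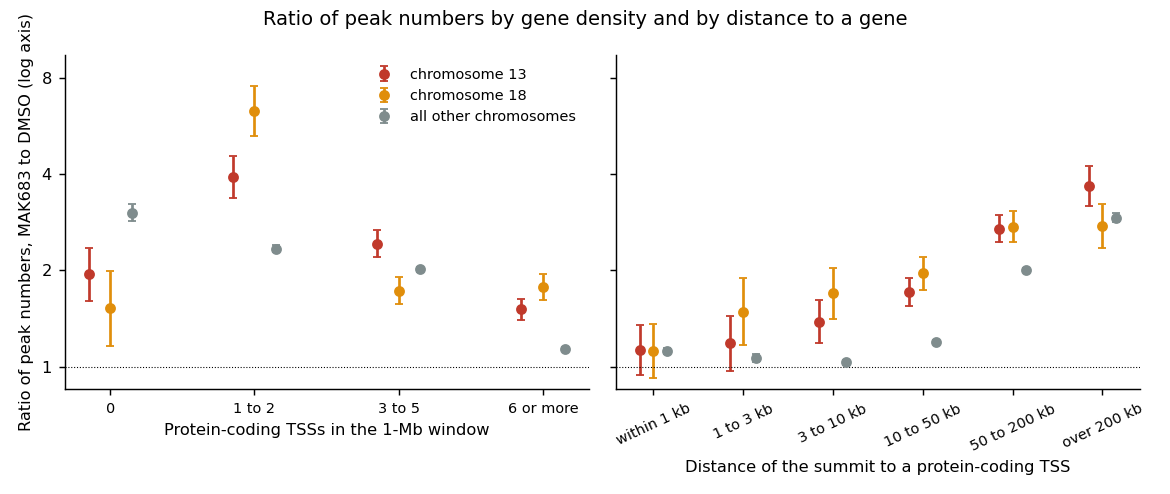
The y axis is the ratio of MAK683 to DMSO peak numbers on a log axis, with 95% counting intervals, for chromosome 13, chromosome 18 and all other chromosomes; the x axis is the number of protein-coding TSSs in the 1-Mb window (left) or the distance of the summit to a protein-coding TSS (right). The ratio is near 1 within 1 kb of a TSS and rises with distance, and it peaks at 1 to 2 TSSs on chromosomes 13 and 18, where it is 3.92 and 6.33.

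Base composition and motifs separated shared from single-library peaks more than the libraries from each other. Shared DMSO peaks were also taller, with a median of 14 tags against 9 in both single-library sets. More of them lay within 3 kb of a TSS of any gene, 41.7% against 20.4% (DMSO-only) and 15.1% (MAK683-only). The part of height and of promoters in these differences was not tested. In 200 bases around the summit, shared DMSO peaks had a median of 53% GC and 4 CpGs, DMSO-only peaks 47% and 2, and MAK683-only peaks 49% and 2, against 38% and 1 in background windows. The CTCF core occurred in 5.35% of shared DMSO peaks (110 of 2058, 4.45 to 6.40%), 0.917% of DMSO-only peaks (0.547 to 1.53%) and 0.810% of MAK683-only peaks (0.602 to 1.09%). Over all peaks it occurred in 124 of 3584 DMSO peaks (3.46%) and 134 of 7441 MAK683 peaks (1.80%), so the numbers of peaks with a match were nearly the same. At 15 or more tags, the CTCF core occurred in 2.33% of 43 DMSO-only and 2.17% of 276 MAK683-only peaks. On the other chromosomes these shares were 6.91% and 2.27%, against 3.92% of shared DMSO peaks there. GATA matches were in 17.1% of shared DMSO peaks, 26.0% of DMSO-only and 23.6% of MAK683-only peaks, below the 39.6% of the more AT-rich background. AP-1 matches were in 6.23% of DMSO-only and 6.11% of MAK683-only peaks, near the background of 6.57%.

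Promoters were read as the tallest peak within 3 kb of the TSS of each of the 588 protein-coding genes on both chromosomes. DMSO had a peak at 429 (73.0%) and MAK683 at 487 (82.8%), with 424 in common and 96 in neither. At 63 genes, 10.7% (8.46 to 13.5%), MAK683 alone had a peak, against 7.87% of protein-coding genes genome-wide. The share was 11.8% (8.72 to 15.8%) on chromosome 13 and 9.40% (6.45 to 13.5%) on chromosome 18, whose interval includes 7.87%. At 5 genes, 0.850% (0.364 to 1.97%), DMSO alone had a peak, against 1.84% genome-wide. The 63 MAK683-only genes used 62 distinct peaks, since CCDC169 and its read-through with SOHLH2 share a promoter. Those promoter peaks held 7 to 26 tags with a median of 13, and 17 of the 63 covered the TSS itself. More than 1 promoter peak was found at 40 of these genes. The nearest DMSO peak was less than 10 kb off at 9. The 23 windows densest in MAK683 peaks held 19 of the 63.

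The tallest MAK683-only promoter peaks on chromosome 13 lay at TNFRSF19, TRPC4, DOCK9, LCP1 and RUBCNL. TNFRSF19, a member of the tumour necrosis factor receptor family, held 26 tags, 1.42 RPM (0.930 to 2.09), over its TSS, and the nearest DMSO peak, of 40 tags, lay 8309 bp from it. TRPC4, a cation channel, held 23 tags, 1.26 RPM, with the nearest DMSO peak 175817 bp away. DOCK9, an exchange factor for the GTPase CDC42, held 20 tags. LCP1, an actin-bundling protein, and RUBCNL, a regulator of autophagy, held 19 each in the window of 12 DMSO and 90 MAK683 peaks.

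On chromosome 18 the tallest were at KLHL14, DSG2, DIPK1C, NOL4 and SALL3. The peak at KLHL14, a kelch-like protein, held 26 tags. DSG2, a desmosomal cadherin of epithelia and heart muscle, held 25 tags, 1.37 RPM (0.886 to 2.02), over its TSS, and the nearest DMSO peak was 185999 bp away. DIPK1C, a divergent protein kinase, held 23 tags, and NOL4, a nucleolar protein, 21. SALL3, a spalt-family transcription factor whose promoter peak is printed above, held 17, and a DMSO peak of 8 tags lay 5442 bp from its TSS. The SALL3 peak did not cover that TSS and lay in an intron of the lncRNA LINC01896. The DMSO library had no peak within 3 kb of any of these TSSs, which at its calling limit of 6 tags does not show that the chromatin was closed.

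Several MAK683-only genes lay far from any DMSO peak. The distance was 903043 bp at SLITRK6, a synaptic adhesion protein (13 tags), 581755 bp at DSC2, a desmosomal cadherin (16 tags), and 1010501 bp at SETBP1, a SET-binding nuclear protein (14 tags). Others lay beside one. RAX, an eye-field homeobox gene, had 16 tags at its TSS in MAK683, while a DMSO peak of 23 tags lay 3821 bp away, and SOX1 had 19 tags with a DMSO peak of 14 tags at 3900 bp. For RAX and SOX1 the call thus rests on the limit of 3 kb.

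The 5 DMSO-only promoters were low. HNRNPA1L2 held 11 tags, AKAIN1 10, and ELF1, F7 and CABYR 8 each, with 1 peak per promoter. ELF1 encodes an ETS transcription factor and F7 coagulation factor VII. A MAK683 peak of 8 tags lay 3269 bp from the F7 TSS, so the call for F7 rests on the limit of 3 kb. HNRNPA1L2 is a near copy of HNRNPA1, and reads may be split between such copies.

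The 424 promoters that both libraries called had a median log2 ratio of -0.39 (-0.43 to -0.34), against -0.47 on the other chromosomes and -0.46 over all 14288. The tallest peak was taken in each library apart. Both heights can thus come from peaks that do not overlap, as at PCDH8, DACH1, KLF12 and NFATC1. MAK683 was higher at 100, or 23.6%, against 13.5% genome-wide, and lower at the other 324, against 86.5%. The 95% counting interval lay above 0 at 5 promoters (COL4A1, COL4A2, ATP8B1, LDLRAD4 and SPATA13), against 0.931% genome-wide, and below 0 at 74, or 17.5%, against 20.6%. The share below 0 was 20.3% on chromosome 13 and 13.9% on chromosome 18. A 2-fold difference was higher in MAK683 at 8 (1.11% genome-wide) and lower at 10 (5.89% genome-wide). The typical promoter was therefore lower after MAK683 here as elsewhere.

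The largest gains at promoters with a peak in both libraries were at COL4A1 and COL4A2 on chromosome 13. These genes encode type IV collagen chains of basement membranes, are transcribed in opposite directions from a common promoter, and share a single peak. It held 11 tags in DMSO and 31 in MAK683, 0.663 and 1.70 RPM, a log2 ratio of 1.36 (0.36 to 2.35). On chromosome 18, ATP8B1, a phospholipid flippase, held 11 and 26 tags, a log2 ratio of 1.10 (0.09 to 2.12). LDLRAD4, an inhibitor of TGF-beta signalling, held 14 and 31, a log2 ratio of 1.01 (0.10 to 1.92). SPATA13 on chromosome 13, which was named after its value was seen, held 13 and 28 tags. The interval included 0 for MBP, myelin basic protein (8 and 18 tags), and for LACC1, an immunometabolic enzyme (7 and 17 tags), whose peak is also that of its neighbour CCDC122.

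The largest losses at promoters with a peak in both libraries were at UFM1, OBI1 and UBE2L5 on chromosome 13 and at ATP5F1A, TXNL4A and SKA1 on chromosome 18. On chromosome 13, UFM1, a ubiquitin-like modifier, held 45 tags in DMSO and 22 in MAK683, a log2 ratio of -1.17 (-1.91 to -0.43). OBI1, a ubiquitin ligase of the replication origin complex, held 30 and 16. UBE2L5, a near copy of a ubiquitin-conjugating enzyme gene and so uncertain, held 32 and 14. On chromosome 18, ATP5F1A, the alpha subunit of ATP synthase, held 27 and 12 tags, a log2 ratio of -1.31 (-2.29 to -0.33). TXNL4A, a spliceosome protein, held 58 and 29, and SKA1, a kinetochore protein, 48 and 25. The interval lay below 0 at each of these 6 genes.

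Lists of genes on both chromosomes differed in direction. Their counts stand beside backgrounds, over all protein-coding genes, of 7.87% with a MAK683 peak only and, at promoters with both peaks, 13.5% higher and 86.5% lower in MAK683. Of 22 developmental transcription factors, MAK683 alone had a peak at 4 (GSX1, SOX1, RAX and SALL3) and both libraries at 17, with 10 higher and 7 lower in MAK683 and a median log2 ratio of 0.12, against -0.46 over all protein-coding promoters. SOX21 held 16 tags in DMSO and 28 in MAK683 and POU4F1 23 and 37, while ZIC5 held 49 and 28 and ZIC2 40 and 27. No member rose beyond its counting interval, and the intervals of ZIC5 and ZIC2 lay below 0. GATA6, a regulator of endoderm and heart, held 21 and 17.

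Of 16 neuronal receptors and synaptic genes, 3 had a MAK683 peak only (SLITRK1, SLITRK6 and NALCN), 4 had none and 9 had both, with 6 higher and a median of 0.54. The list includes the myelin gene MBP, which had its highest log2 ratio, 1.03. HTR2A held 17 and 33 tags, ADCYAP1, a neuropeptide gene, 11 and 23, and DCLK1, a microtubule-associated kinase, 10 and 20. Only NBEA, a trafficking protein (33 and 19 tags), had an interval away from 0, and it was lower in MAK683. Of 13 growth factors, receptors and related signalling genes, 4 had a MAK683 peak only (FLT1, TNFSF11, EDNRB and GRP) and 8 had both, 5 of them higher, with a median of 0.26. FGF14 held 10 and 23 tags, IRS2 16 and 29, and SPRY2, an inhibitor of receptor kinase signalling, 27 and 45, with no interval away from 0. Of 15 cadherins, DSC2, DSG2 and PCDH20 had a MAK683 peak only, 3 had both and 9 had none. CDH2, N-cadherin, held 10 and 21 tags.

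Basement membrane and matrix genes had both peaks at 8 of 10, with 6 higher and a median of 0.17. COL4A1 and COL4A2 count there with the single peak they share, and they alone had an interval above 0. FREM2, a matrix protein of epithelial adhesion, held 14 and 25 tags, while GPC6, a glypican, held 45 and 42 and LAMA3, a laminin chain, 24 and 21.

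In the remaining lists most members with both peaks were lower in MAK683, as were 86.5% of all protein-coding promoters with both peaks, whose median was -0.46. Of 14 genes of the cell cycle, replication and DNA repair, all had both peaks and 13 were lower, with a median of -0.44 and 3 intervals below 0. BRCA2, of homologous recombination, held 54 and 39 tags, SKA3, of the kinetochore, 51 and 31, and RB1, the retinoblastoma gene, 28 and 25. CCNA1, a germline cyclin, held 10 and 19. Of 6 BMP and TGF-beta signalling genes, 5 had both and all 5 were lower, with a median of -0.55; SMAD2 (47 and 29) and SMAD4 (40 and 26), both signal transducers, had intervals below 0. Of 20 housekeeping genes of metabolism, translation and trafficking, 19 had both and all 19 were lower, with a median of -0.61 and 8 intervals below 0. SUCLA2, of the citric acid cycle, held 51 and 31 tags and UCHL3, a deubiquitinase, 57 and 36. The 6 genes of the largest gains had 7 to 14 DMSO tags, near the calling limit, and the 6 of the largest losses 27 to 58, so direction and starting height move together and the part of height in the lists was not tested. ATAC-seq measures access and not expression, and in bulk cells a lower peak from fewer cells with an open site cannot be told apart from less access per cell.

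**Figure D5:**
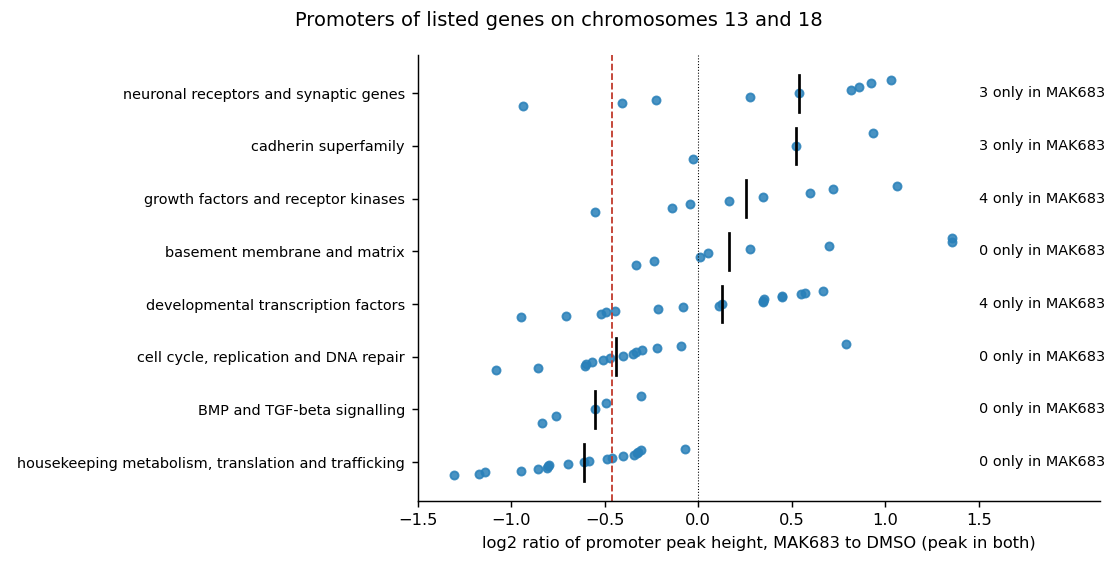
Each point is the log2 ratio of promoter peak height, MAK683 to DMSO, of a listed gene with a peak in both libraries; black bars are list medians, the dashed red line the median of -0.46 over all protein-coding promoters, and the text at the right the number of genes with a MAK683 peak only. The neuronal list and the cadherins have the highest medians, 0.54 and 0.52, and housekeeping genes the lowest, -0.61. The cadherin median rests on 3 genes. Its middle value is that of PCDH8, whose peaks in both libraries do not overlap.

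Promoters of long non-coding RNA (lncRNA) genes were read in the same way. Of 1076 on both chromosomes, MAK683 alone had a peak at 155, or 14.4% (12.4 to 16.6%), near the 12.9% of lncRNA genes genome-wide. The share was 12.9% (10.3 to 16.0%) on chromosome 13 and 15.9% (13.1 to 19.3%) on chromosome 18. Some of these peaks also count for a protein-coding gene. DMSO alone had a peak at 28, or 2.60%, against 3.48% genome-wide. At the 274 with both, the median log2 ratio was -0.33, against -0.41 on the other chromosomes.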

How the data were processed

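ATAC-seq peak lists of 1 DMSO and 1 MAK683 library of G401 cells were used. The study's methods name Trim-galore for trimming and Bowtie2 for alignment, on hg19. The file headers show that the authors ran MACS 2.1.1.20160309 separately on both libraries, reading tags as single ends shifted by 100 bp and extended to 200 bp, with no control, 1 background level for the whole genome, 1 tag kept per position and a q-value cutoff of 0.05. This kept 16598348 of 23901891 DMSO tags and 18265284 of 26692938 MAK683 tags. The submitters' processing notes also name MACS2 2.1.0 and 2.2.7.1.

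The deposited pileup is a signal in whole tags over the summit, without scaling. The deposited fold enrichment is a ratio to the background. The deposited −log10 p-values and −log10 q-values grow with depth. Positions were deposited in bp.

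Heights were divided by filtered tags (RPM). Peaks were shared when at least 1 bp overlapped. TSSs came from GENCODE 44 lifted to GRCh37, 1 per gene. Windows were 1 Mb. The 95% intervals are Wilson for shares, Poisson for ratios and for log2 ratios of single promoters, order-statistic for medians and Clopper-Pearson for single heights. The code was tested on simulated data, with Python 3.11.15, numpy 2.4.6, pandas 2.3.3, scipy 1.17.1 and matplotlib 3.10.9.

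Members, lists and rules were chosen with earlier results of these data known. The rule names the members of 8 lists; the 5 tallest single-library promoters per chromosome and library; the 3 largest promoter ratios per chromosome and direction with 15 or more tags in either library; the 2 tallest single-library peaks per chromosome and library; the tallest shared region; and the 2 windows of largest excess per chromosome and library. Other genes, regions and windows were named after their values were seen. Peaks outside chromosomes 13 and 18 served only for comparison.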

Additional observations from a re-analysis of the deposited data

How the results depend on the processing

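Of 67 recomputed values, 9 changed direction, 46 moved beyond their counting interval, or beyond 1.5 times for a gene count, and 12 did neither. With a −log10 q of at least 5, at least 10, a height of at least 1 RPM and equal peak numbers in turn, the peak number ratio was 1.34, 0.990, 0.831 and 1.47 (2.08 as reported) and the covered base ratio 1.22, 0.942, 0.827 and 1.35 (1.62). The ratio in windows without a protein-coding TSS was 0.994, 0.676, 0.450 and 1.23 (1.80), and in windows of 6 or more 1.12, 0.897, 0.811 and 1.17 (1.61). These 4 ratios were thus below 1 with a −log10 q of at least 10 and at 1 RPM, and that without a TSS also under a limit of 5. A change of direction was read from the value alone. The intervals of 0.990 (0.906 to 1.08), 0.942 (0.862 to 1.03), 0.994 (0.801 to 1.23) and 0.897 (0.788 to 1.02) included 1. The shared share of MAK683 peaks was 43.9, 67.5, 76.1 and 35.1% (28.7%), and the TSS-proximal share of MAK683 peaks 32.3, 54.7, 64.5 and 25.5% (22.4%).

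Under a −log10 q limit of 10, at 1 RPM and at equal numbers, the shared share of DMSO peaks was 66.4, 63.4 and 50.8% (57.4%) and the median log2 height ratio -0.37, -0.39 and -0.25 (-0.29). The TSS-proximal share of DMSO peaks was 37.9, 52.3 and 58.3% (32.6%) under −log10 q limits of 5 and 10 and at 1 RPM, and genes with a DMSO promoter peak only numbered 9, 13 and 28 (5). Genes with a MAK683 promoter peak only numbered 41 at 1 RPM (63). The stricter filters drop low peaks in each library apart, so that a gene can enter such a list because its lower peak was dropped.

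When 50% of each peak had to overlap, or summits had to lie within 150 bp, the shared shares were 33.3 and 31.8% for DMSO and 16.1 and 15.3% for MAK683, and the median under the first was -0.32. Without depth scaling the median was -0.15, and with the authors' fold enrichment -0.22. TSS-proximal shares with a 1-kb window were 20.1% (DMSO) and 12.6% (MAK683), and with protein-coding TSSs 20.3% and 11.7%. With windows of 500 kb and 2 Mb, the ratio was 2.83 and 1.06 without a TSS, and 1.10 and 1.95 at 6 or more TSSs. Chosen after seeing the data, the ratio was 1.66 without the windows densest in MAK683 peaks, and in windows without a TSS 2.94 without that of most DMSO peaks and 6.40 without both of 50 or more. The causes of these moves were not tested, except that the filters remove low peaks by construction. No paired analysis was possible because each group had 1 library. Depth limits low peaks: the lowest called had 6 tags, and the median single-library peak had 9.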

Other observations

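The tallest MAK683-only lncRNA promoters on chromosome 13 were ENSG00000271776, 26 tags, near POU4F1, and ENSG00000287477, 23 tags, on the peak that also counts for TRPC4. On chromosome 18 they were ENSG00000228835, 26 tags, on the KLHL14 peak, and ENSG00000266521, 25 tags, on the DSG2 peak. The tallest DMSO-only lncRNA promoters were lower, with 10 tags at ENSG00000287330 and GRTP1-AS1 on chromosome 13 and 12 tags at ENSG00000263847 and ENSG00000263895 on chromosome 18. Peaks shared between a lncRNA and its protein-coding neighbour cannot be assigned to either TSS.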
